A study of Rattus norvegicus with 12 samples.

Results

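The Bcl2 family apoptosis regulators were followed across a rat model of liver carcinogenesis, from control liver to hepatocellular carcinoma (HCC). The family was taken as 10 genes, namely Bax, Bak1, Bcl2, Bcl2l1, Mcl1, Bid, Bad, Bcl2l11, Bik and Bmf, and every probe set annotated to 1 of these genes and no other was included. The array held 15 such probe sets for 9 of the genes, out of 20826 probe sets for 14217 genes with a probe set of their own. Bax was the gene left without one, because its single probe set is annotated to Bax together with LOC681314, a separate locus. RNA was measured on 12 single-colour arrays, 3 for each of 4 groups of male adult Sprague-Dawley rats. Controls were injected with distilled water, and the hepatitis, cirrhosis and HCC groups received the alkylating carcinogen diethylnitrosamine (DEN) intraperitoneally at 70 mg/kg, 1 dose a week over 10 weeks. Tissue was taken in week 5 (hepatitis), in weeks 13 to 14 (cirrhosis) or in weeks 23 to 24 (HCC) after DEN, where the labels leave unsaid whether the first or the last dose is meant, and they give no time for the controls. Control, hepatitis and cirrhosis samples are liver, and the HCC samples are tumour tissue per the series description, although their tissue label reads liver. Nothing in the labels states that the 3 arrays of a group come from different rats, so the p-values reflect only the spread among these arrays, which may be technical.

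Proteins of the Bcl2 family decide whether the outer mitochondrial membrane stays intact. Bax and Bak1, the effectors, form pores in it and release cytochrome c, which starts the caspase cascade. Bcl2, Bcl2l1 (Bcl-xL) and Mcl1 hold the effectors in check. The BH3-only proteins Bid, Bad, Bcl2l11 (Bim), Bik and Bmf sense damage and either block the survival proteins or activate the effectors. In mouse liver, Bid carries the death signal of the Fas receptor to mitochondria, and hepatocytes depend on Mcl1 and Bcl-xL for survival.

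The HCC arrays differed from the other 9 in several ways that stand beside every HCC value given here. The median SD per probe set, on the log2 scale, was 0.144 in HCC against 0.0652 to 0.0804 in the other groups. For Gapdh, the 3' control probe set exceeded the 5' one, a measure of RNA integrity, by 1.35 to 3.14 (log2) in HCC, 0.38 to 0.69 in hepatitis and 0.42 to 0.56 in cirrhosis, against 0.87 to 1.02 in control. On Gapdh, hepatitis and cirrhosis thus also lay apart from control, on the lower side. For beta actin the same difference was 3.82 to 4.85 in HCC, 2.14 to 2.54 in hepatitis and 2.22 to 2.42 in cirrhosis. Control had 2.41 to 2.69 there, and hepatitis and cirrhosis overlapped it. All 10 hepatocyte markers (such as Alb and Ttr) reached an intensity of 16 on at least 1 array of every group. Their summed intensity was 38712 to 68239 in HCC against 73377 to 74545 in control. Of these 10 markers 7 were lower in HCC, while 8 of 10 proliferation genes were higher. Of 10 stellate cell and myofibroblast genes 5 were higher and 1 was lower. These 10 genes summed to 2949 to 6585 in HCC against 2391 to 3043 in control, with overlap. The summed proliferation level was 1586 to 4404 in HCC against 874 to 1349 in control, and the 9 macrophage markers summed to 2009 to 2530 in HCC against 4600 to 10360 in control. Control replicate 3 held the upper end of that macrophage range, with the other controls at 5295 and 4600. Control replicate 2 stood apart in skeletal muscle markers, which summed to 1868 there against 43.3 and 63.7 on the other controls. The 6 cholangiocyte markers summed to 387 to 5963 in HCC, with the top on replicate 1, against 257 to 280 in control. In HCC 1 of the 6 passed the test as higher, and 3 were under 16 in control. On hepatitis replicate 1 these markers summed to 1070, against 366 and 355 on the other hepatitis arrays. In hepatitis the 4 measured neutrophil markers, with Cxcr2 under 16, summed to 726 to 1233 against 148 to 228 in control. The 5 B and plasma cell markers, with Cd79b under 16, summed to 407 to 714 in hepatitis against 134 to 284 in control, and 2 genes of each of these lists passed the test. The 4 erythroid markers summed to 996 to 2965 in hepatitis, 871 to 1844 in cirrhosis and 436 to 542 in HCC, against 4259 to 6403 in control, and 1, 4 and 4 of them passed the test as lower. In HCC 3 of 7 endothelial markers were lower, and the 7 summed to 553 to 1342 against 2405 to 2727 in control. Of 10 T and NK cell markers 4 were higher, and the 10 summed to 304 to 666 against 252 to 461. Beside these marker counts, 2.95%, 3.62% and 29.8% of all probe sets passed the test in hepatitis, cirrhosis and HCC against control. Markers were read by the brightest probe set of each gene. In a fit with only that probe set per gene, 568, 475 and 5501 of 14217 passed. Fewer cells of a type and less RNA per cell cannot be told apart in whole tissue, and the part of the marker shifts in the results was not tested.

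At the hepatitis stage the BH3-only genes Bid and Bmf moved in opposite directions, and the survival gene Bcl2l1, on 1 of its 3 probe sets, was higher than in control. Of 2 Bid probe sets 1 was higher at all 3 stages, and the other, a dim one, passed the test in hepatitis and not in cirrhosis or HCC. Bmf was lower in hepatitis and HCC and near the control level in cirrhosis. In HCC, Bak1 and 1 of 2 Mcl1 probe sets were also higher, and Bad and Bmf were lower. Values were compared as log2(intensity + 16), on which a difference of a dim probe set is understated, with limma over all 31042 probe sets and all 12 arrays. The threshold for a call was 0.05 after Benjamini-Hochberg adjustment. Of the 15 family probe sets 4 were called in hepatitis against control, 3 higher and 1 lower, where 2.95% of all probe sets were called (1.42% higher and 1.53% lower). In cirrhosis against control 1 was called, higher, with 3.62% of all probe sets (1.59% higher and 2.04% lower). In HCC against control 5 were called, 3 higher and 2 lower, with 29.8% of all probe sets (15.7% higher and 14.1% lower), so the family's 33.3% lay near the background. The 3 arrays of both groups did not overlap for 7 of 15 in hepatitis, 7 in cirrhosis and 5 in HCC against control, where 27.5%, 34.2% and 40.1% of all probe sets were so. The median log2 difference of the 15 was 0.05, 0.02 and -0.03 in hepatitis, cirrhosis and HCC against control, with -0.0077, -0.0011 and 0.0054 over all probe sets.

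**Figure D1:**
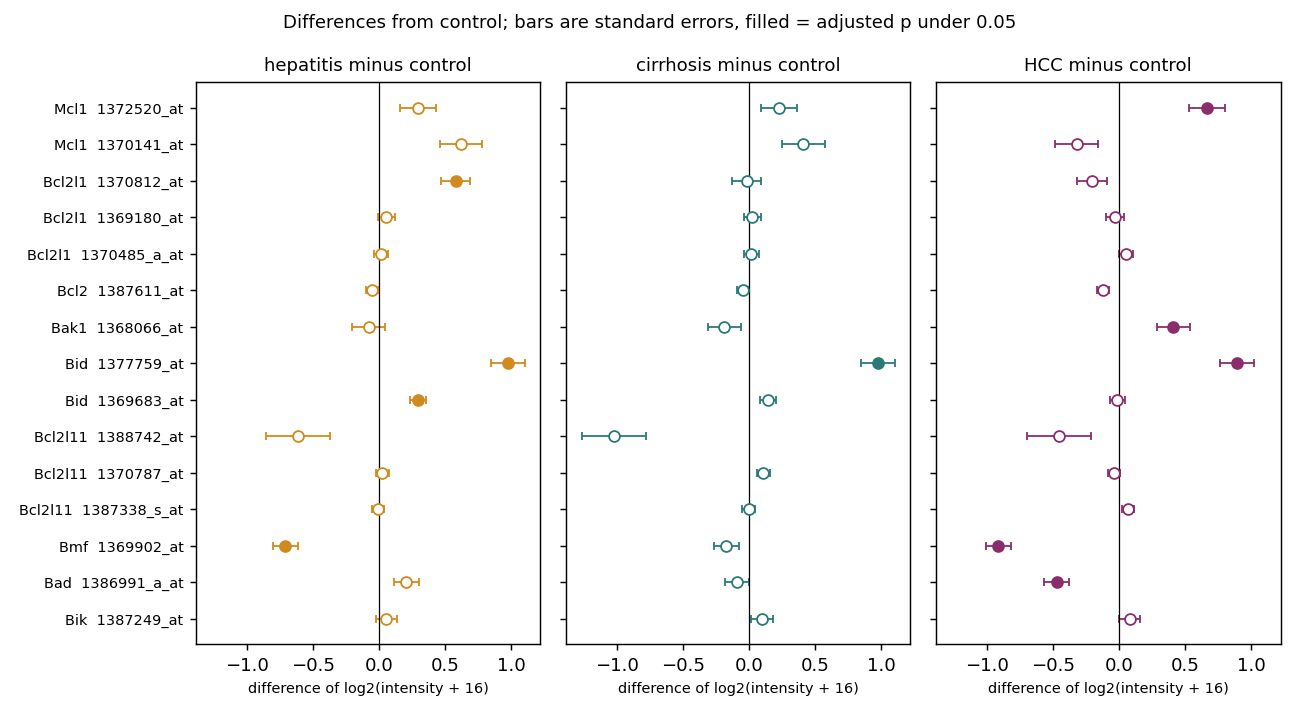
Difference of log2(intensity + 16) from the control mean for each of the 15 family probe sets, in hepatitis, cirrhosis and HCC (3 arrays per group). Points are differences, bars standard errors, and filled points have an adjusted p under 0.05; Bid 1377759_at is filled in all 3 panels, and Bmf at -0.71 in hepatitis and -0.91 in HCC.

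Regulatory sequence of the 3 BH3-only genes with the largest differences from control is shown as the 250 bases before the annotated start in RefSeq (GRCr8), since these windows are where shared or differing promoter letters would be read. Windows were on hand for 8 of the 10 genes, all but Bax and Bik. They numbered 11 in all because Bcl2l1 has several starts, some with overlapping windows. Capitals mark GGGCGG (the core bound by Sp1), CCAAT (bound by NF-Y) and GTAAACA (bound by forkhead factors), each searched on both strands, so that CCAAT on the opposite strand reads ATTGG here, with no match overlapping another.
Bid promoter, chr4:155808320-155808569, minus strand: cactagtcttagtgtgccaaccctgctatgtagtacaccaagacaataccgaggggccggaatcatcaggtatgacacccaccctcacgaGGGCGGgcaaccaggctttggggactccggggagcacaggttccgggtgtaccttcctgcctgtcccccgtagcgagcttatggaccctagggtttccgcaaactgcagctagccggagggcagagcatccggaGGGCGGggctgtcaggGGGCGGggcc
Bmf promoter, chr3:125974065-125974314, minus strand: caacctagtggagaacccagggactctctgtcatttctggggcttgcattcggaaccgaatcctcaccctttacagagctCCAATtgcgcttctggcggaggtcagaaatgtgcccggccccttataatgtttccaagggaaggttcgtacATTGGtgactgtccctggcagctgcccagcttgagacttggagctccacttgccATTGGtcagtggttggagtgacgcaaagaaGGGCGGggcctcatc
Bcl2l11 promoter, chr3:135819792-135820041, plus strand: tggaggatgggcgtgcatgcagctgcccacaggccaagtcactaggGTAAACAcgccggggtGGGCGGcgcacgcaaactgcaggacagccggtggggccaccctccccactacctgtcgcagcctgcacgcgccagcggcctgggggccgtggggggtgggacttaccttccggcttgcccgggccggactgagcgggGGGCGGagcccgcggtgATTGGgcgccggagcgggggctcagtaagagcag
The Bid window held GGGCGG 3 times. The Bmf window held CCAAT 3 times and GGGCGG 1 time, and the Bcl2l11 window held GGGCGG 2 times with 1 CCAAT and 1 GTAAACA. Of 33360 distinct windows of the same length 30.5% hold GGGCGG, 34.0% CCAAT and 3.21% GTAAACA. The Bad window was the other family window with GTAAACA. The p53 half-site was in none of the 11 family windows, which leave out Bax, and in 6.65% of all windows. TGACGTCA (the cAMP response element) was likewise in none against 1.59%. At shares this low, none among 11 windows does not set the family apart. TATAAA was in the window of Bcl2, against 12.9% of all windows. GC content was 62.8% for Bid, 55.2% for Bmf and 72.0% for Bcl2l11, with a median of 51.6% over all windows.

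Bid, the BH3-only protein that caspase 8 cleaves after death receptor signalling, had 2 probe sets. On the brighter, 1377759_at, intensities were 83.0, 83.1 and 102 for control, 196, 190.3 and 184 for hepatitis, 178, 209 and 185 for cirrhosis and 201, 201 and 140.5 for HCC, for replicates 1 to 3. Every array of the DEN groups lay above every control. The rise was 0.98 ± 0.13 in hepatitis (log2 ± SE over 3 arrays a group, limma adjusted p = 0.00513), 0.98 ± 0.13 in cirrhosis (adjusted p = 0.00618) and 0.89 ± 0.13 in HCC (adjusted p = 0.000851), or 1.97-fold, 1.97-fold and 1.86-fold on the scale of intensity + 16. The 3 stages overlapped, with differences of -0.08 to 0.0007 between them and adjusted p = 0.668 to 0.999. These calls against control held in every alternative tried, with adjusted p of at most 0.0366.

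The other Bid probe set, 1369683_at, was dim, at 9.95 to 20.1 over the 12 arrays with 9 of them under 16. It read 12.4, 9.95 and 12.6 for control, 17.5, 20.1 and 16.2 for hepatitis, 14.6, 15.3 and 13.7 for cirrhosis and 10.4, 12.5 and 11.2 for HCC. The hepatitis arrays lay above all others. The rise of 0.29 ± 0.06 passed the test (log2, SE; limma adjusted p = 0.0273) but not without control replicate 1 (0.0762), control replicate 2 (0.105), hepatitis replicate 1 (0.0884), hepatitis replicate 2 (0.0738) or cirrhosis replicate 1 (0.0509). In HCC the difference from control was -0.01 ± 0.06 (adjusted p = 0.886), where the brighter probe set was higher. HCC against hepatitis fell by 0.31 on this probe set (adjusted p = 0.00332), while the brighter one had -0.08 (adjusted p = 0.688). In cirrhosis it differed from control by 0.14 ± 0.06 (adjusted p = 0.243). Its cirrhosis arrays lay below all hepatitis arrays, with -0.15 ± 0.06 (adjusted p = 0.361), and HCC against cirrhosis had -0.16 (adjusted p = 0.0624, or 0.0454 without HCC replicate 2). The 2 probe sets thus differ in their HCC reading, and the cause was not tested.

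Bmf, a BH3-only protein tied to the cytoskeleton that responds to loss of attachment, had the smallest p of the family in the F test over all stages (adjusted p = 0.000303). Its intensities were 35.7, 42.4 and 35.1 for control, 12.6, 21.8 and 16.6 for hepatitis, 33.5, 31.6 and 29.8 for cirrhosis and 11.2, 12.9 and 13.3 for HCC. The hepatitis and HCC arrays lay below all controls and all cirrhosis arrays, and overlapped each other. Bmf fell by 0.71 ± 0.09 in hepatitis (log2, SE; limma adjusted p = 0.00563) and fell by 0.91 ± 0.09 in HCC (adjusted p = 0.000185). It was under an intensity of 16 on 4 of the 12 arrays, namely every HCC array and hepatitis replicate 1. At this brightness the added 16 holds down the differences. Over the alternatives Bmf had -1.13 to -0.61 in hepatitis and -1.52 to -0.85 in HCC, so the size depends on the setting while the direction does not. Cirrhosis differed from control by -0.17 ± 0.09 (adjusted p = 0.436), although its arrays lay just below the controls. HCC was lower than cirrhosis by -0.74 ± 0.09 (adjusted p = 0.000398), and HCC differed from hepatitis by -0.20 ± 0.09 (adjusted p = 0.142, or 0.0299 without hepatitis replicate 1). In order of mean intensity, 12.5 in HCC and 17.0 in hepatitis stood low, 31.6 in cirrhosis and 37.7 in control high, and the neighbours within each of these pairs did not pass the test. Control replicate 2, the array with the muscle markers, read highest of the controls, and without it Bmf had -0.65 in hepatitis (adjusted p = 0.0295) and -0.85 in HCC (adjusted p = 0.00129).

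Cirrhosis was higher than hepatitis for Bmf by 0.54 ± 0.09 (log2, SE; limma adjusted p = 0.0435), the single family call in a comparison where 0.651% of all probe sets were called (0.290% higher and 0.361% lower). It was lost without any 1 of the controls (adjusted p = 0.0597 to 0.0741), any 1 of the cirrhosis arrays (0.122 to 0.165), hepatitis replicate 1 (0.0885) or hepatitis replicate 3 (0.127). The difference itself stayed between 0.44 and 0.89 in all alternatives, and the 3 cirrhosis arrays lay above the 3 hepatitis arrays.

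**Figure D2:**
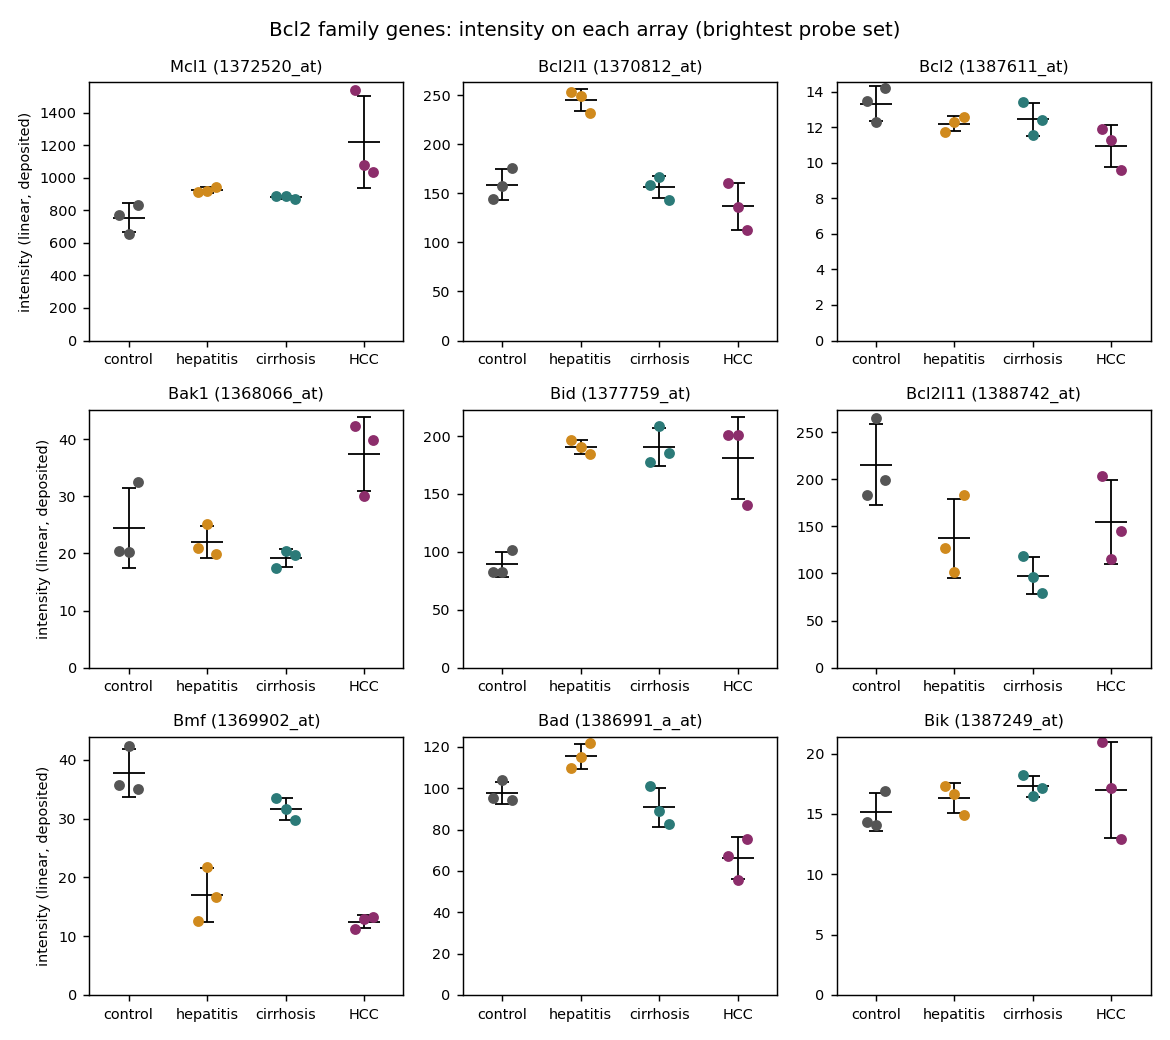
Deposited linear intensity of each gene's brightest probe set on the 12 arrays, in control, hepatitis, cirrhosis and HCC. Points are arrays, the horizontal bar is the mean and the error bar the SD (n = 3); Bid is above control at every stage, and Bmf is low in hepatitis (12.6 to 21.8) and HCC (11.2 to 13.3).

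Bcl2l11 encodes Bim, a BH3-only protein that binds all survival members. Its bright probe set 1388742_at read 183, 265 and 199 for control, 127, 101 and 184 for hepatitis, 118, 96.4 and 78.7 for cirrhosis and 203, 116 and 146 for HCC. The cirrhosis arrays lay below all controls, and the hepatitis and HCC arrays overlapped them. The cirrhosis difference of -1.02 ± 0.24 (log2, SE) was the largest of the family there but missed the threshold (limma adjusted p = 0.0519). It passed without the 3 HCC arrays (adjusted p = 0.0264), without HCC replicate 1 (0.0318), HCC replicate 2 (0.0371) or hepatitis replicate 3 (0.0318). In hepatitis the difference was -0.62 ± 0.24 (adjusted p = 0.246), and in HCC -0.45 ± 0.24 (adjusted p = 0.198). HCC against cirrhosis had 0.57 ± 0.24 (adjusted p = 0.105, or 0.0479 without HCC replicate 2). Control replicate 2 read highest of the controls here too, and without it the cirrhosis difference was -0.88 ± 0.26 (adjusted p = 0.179). The F test over all stages called this probe set (adjusted p = 0.0427), a call lost without any 1 of the controls (0.0651 to 0.124), any 1 of the cirrhosis arrays (0.0548 to 0.117), hepatitis replicate 1 (0.0678) or HCC replicate 3 (0.0659), and with the replicate block (0.0785). Of its 2 dim probe sets, 1387338_s_at stayed at 5.10 to 8.02 with no call. The other, 1370787_at, read 12.2, 14.3 and 13.9 for control, 15.1, 13.1 and 13.7 for hepatitis, 14.6, 17.6 and 15.1 for cirrhosis and 12.4, 12.4 and 13.1 for HCC. It was lower in HCC than in cirrhosis by -0.15 ± 0.05 (adjusted p = 0.042), a call lost in 12 of 18 alternatives, among them the removal of any HCC array (0.0623 to 0.0846), of control replicate 2 (0.0535) or 3 (0.0571), of hepatitis replicate 2 (0.0522) or 3 (0.0573), and of cirrhosis replicate 2 (0.149) or 3 (0.0683).

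Bad, a BH3-only protein that growth factor signalling keeps inactive by phosphorylation, read 95.4, 104 and 94.2 for control, 109.6, 115 and 122 for hepatitis, 101, 89.1 and 82.6 for cirrhosis and 67.4, 55.8 and 75.7 for HCC. The HCC arrays lay below every other array, and the hepatitis arrays above every other. Bad fell by 0.47 ± 0.09 in HCC against control (log2, SE; limma adjusted p = 0.00435), and was lower in HCC than in hepatitis by -0.68 ± 0.09 (adjusted p = 0.000666) and than in cirrhosis by -0.38 ± 0.09 (adjusted p = 0.0115). The hepatitis difference from control, 0.21 ± 0.09, did not pass (adjusted p = 0.32). Bik, a BH3-only protein of the endoplasmic reticulum, read 14.4, 14.1 and 16.9 for control, 17.3, 16.6 and 15.0 for hepatitis, 18.2, 16.5 and 17.1 for cirrhosis and 20.9, 17.1 and 13.0 for HCC, with overlap between all groups. No comparison called it, with differences of -0.02 to 0.10 and the smallest adjusted p at 0.518.

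Among the survival genes, Mcl1 encodes a short-lived protein that must be made continuously, and its 2 probe sets disagreed in HCC. Probe set 1372520_at read 774, 658 and 834 for control, 912, 919 and 944 for hepatitis, 886, 886 and 869 for cirrhosis and 1543, 1077 and 1038 for HCC. All arrays of the DEN groups lay above the controls, and the HCC arrays were highest. The difference from control passed in HCC, at 0.66 ± 0.14 (log2, SE; limma adjusted p = 0.00549), and not in hepatitis (0.29 ± 0.14, adjusted p = 0.34) or cirrhosis (0.22 ± 0.14, adjusted p = 0.497). HCC was also higher than cirrhosis, by 0.44 ± 0.14 (adjusted p = 0.0332), a call lost without any 1 of the cirrhosis arrays (0.0791 to 0.0859). HCC against hepatitis had 0.37 ± 0.14 (adjusted p = 0.0703), and passed without HCC replicate 2 (0.0469) or HCC replicate 3 (0.0387).

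On the other Mcl1 probe set, 1370141_at, intensities were 72.0, 71.8 and 82.3 for control, 136, 120.4 and 118 for hepatitis, 105, 108 and 103 for cirrhosis and 84.7, 47.7 and 44.7 for HCC. Hepatitis and cirrhosis arrays lay above all controls, and HCC replicates 2 and 3 lay below them. HCC was lower than hepatitis by -0.94 ± 0.16 (log2, SE; limma adjusted p = 0.00223) and lower than cirrhosis by -0.73 ± 0.16 (adjusted p = 0.00709). The difference from control was 0.62 ± 0.16 in hepatitis (adjusted p = 0.0791), 0.41 ± 0.16 in cirrhosis (adjusted p = 0.234) and -0.32 ± 0.16 in HCC (adjusted p = 0.172). Without HCC replicate 1 all 3 passed, at adjusted p = 0.00215, 0.0111 and 0.000707, with the HCC difference then -0.55. Without the 3 HCC arrays the hepatitis and cirrhosis differences also passed (adjusted p = 0.0022 and 0.00969). So they did with only the 2 compared groups in the fit (adjusted p = 0.0223 and 0.00633). Against cirrhosis, HCC was thus higher on one Mcl1 probe set and lower on the other, both past the threshold. The 3' to 5' difference of Gapdh was 1.35 on HCC replicate 1, the array on which both Mcl1 probe sets read highest within HCC, and 2.43 and 3.14 on replicates 2 and 3, and its part in the disagreement was not tested.

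**Figure D3:**
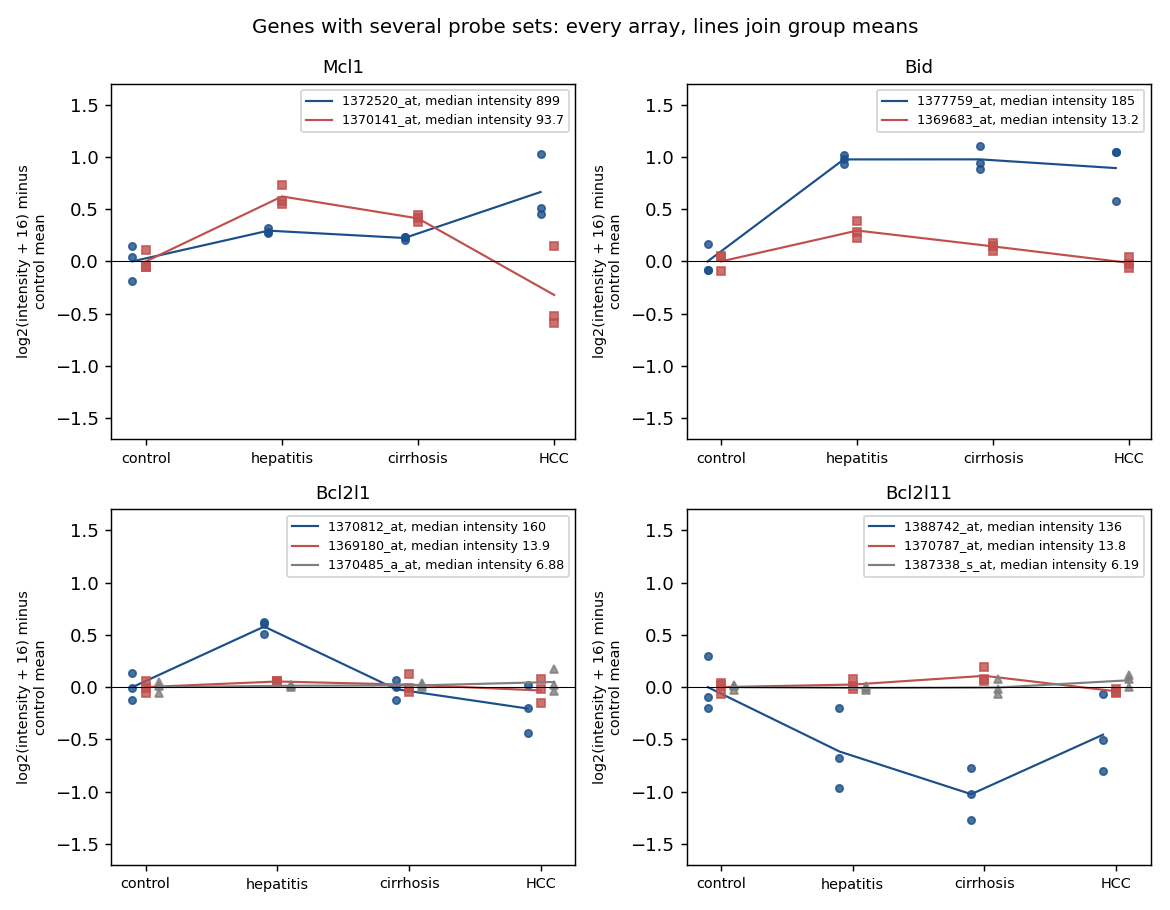
log2(intensity + 16) minus the control mean for each probe set of the genes with several, on every array of control, hepatitis, cirrhosis and HCC; lines join group means. The Mcl1 probe sets part in HCC (0.66 and -0.32). For Bid, Bcl2l1 and Bcl2l11 the brightest probe set moves most and those with a median under 16 move less. The added 16 holds down the differences of such dim probe sets, so that ordering is no result about them.

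Bcl2l1 encodes Bcl-xL, the survival protein known to protect hepatocytes; another splice form promotes death, and the probe sets were not assigned to splice forms. On 1370812_at, intensities were 144, 157 and 176 for control, 253, 249 and 232 for hepatitis, 159, 166 and 144 for cirrhosis and 161, 136 and 113 for HCC. The hepatitis arrays lay above all 9 others. The rise over control was 0.58 ± 0.11 (log2, SE; limma adjusted p = 0.0261), and it did not pass without control replicate 1 (0.111), control replicate 2 (0.0976), hepatitis replicate 1 (0.104) or hepatitis replicate 2 (0.0703). Cirrhosis and HCC differed from control by -0.02 ± 0.11 (adjusted p = 0.976) and -0.20 ± 0.11 (adjusted p = 0.207, or 0.0391 without HCC replicate 1). HCC was lower than hepatitis by -0.78 ± 0.11 (adjusted p = 0.000815). Cirrhosis against hepatitis had -0.60 ± 0.11 (adjusted p = 0.0514), and passed without HCC replicate 1 (0.022), HCC replicate 2 (0.0496), HCC replicate 3 (0.0229) or all 3 (0.0105). HCC against cirrhosis had -0.19 ± 0.11 (adjusted p = 0.243, or 0.0465 without HCC replicate 1). The 2 other Bcl2l1 probe sets were dim, at 10.5 to 16.1 and 5.70 to 9.48, and no comparison called either.

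Bcl2, the founding survival protein, was under an intensity of 16 on all 12 arrays, at 9.60 to 14.2. It read 13.5, 12.3 and 14.2 for control, 11.7, 12.3 and 12.6 for hepatitis, 13.4, 11.5 and 12.4 for cirrhosis and 11.9, 11.3 and 9.60 for HCC. The HCC arrays lay below all controls. The HCC difference of -0.12 ± 0.05 did not pass (log2, SE; limma adjusted p = 0.0698), except without HCC replicate 1 (0.0479). At this brightness the added 16 outweighs the signal, which limits the differences of Bcl2 that could be measured.

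Of the effectors, Bak1 read 20.4, 20.3 and 32.5 for control, 20.9, 25.1 and 19.8 for hepatitis, 17.4, 20.5 and 19.7 for cirrhosis and 42.2, 30.0 and 39.8 for HCC. The HCC arrays lay above all arrays but control replicate 3, the control with the highest macrophage markers. HCC was higher than control by 0.41 ± 0.12 (log2, SE; limma adjusted p = 0.0339), than hepatitis by 0.49 ± 0.12 (adjusted p = 0.016) and than cirrhosis by 0.59 ± 0.12 (adjusted p = 0.00546). The call against cirrhosis held in all 19 alternatives. That against control was lost without control replicate 1 (0.115) or 2 (0.12), HCC replicate 1 (0.096) or 3 (0.0948), or cirrhosis replicate 3 (0.0501), and that against hepatitis without hepatitis replicate 3 (0.054) or HCC replicate 3 (0.052). Hepatitis and cirrhosis differed from control by -0.08 ± 0.12 (adjusted p = 0.872) and -0.19 ± 0.12 (adjusted p = 0.554).

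The probe set annotated to both Bax and LOC681314, 1369122_at, is not counted with the family, since its signal cannot be assigned to 1 of them. It read 191, 184 and 211 for control, 466, 378 and 428 for hepatitis, 188, 217 and 198 for cirrhosis and 317, 299 and 273 for HCC. The hepatitis arrays lay above all others, and the HCC arrays above control and cirrhosis. The rise was 1.06 ± 0.09 in hepatitis (log2, SE; limma adjusted p = 0.00063) and 0.56 ± 0.09 in HCC (adjusted p = 0.00137), with 0.04 ± 0.09 in cirrhosis (adjusted p = 0.932).

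Between the stages, 1 of the 15 family probe sets was called in cirrhosis against hepatitis, as given for Bmf. In HCC against hepatitis 5 were called, 1 higher (Bak1) and 4 lower (Bad, Bcl2l1 1370812_at, Mcl1 1370141_at and Bid 1369683_at), with 29.0% of all probe sets called (15.5% higher and 13.4% lower). In HCC against cirrhosis 6 were called, 2 higher (Bak1 and Mcl1 1372520_at) and 4 lower (Bad, Bmf, Mcl1 1370141_at and Bcl2l11 1370787_at), with 32.2% of all probe sets called (17.5% higher and 14.8% lower). Groups without overlap numbered 6 of 15 in cirrhosis against hepatitis, 6 in HCC against hepatitis and 7 in HCC against cirrhosis, with 23.5%, 37.4% and 43.5% over all probe sets. The F test for any difference among the 4 groups called 9 of 15, from 7 genes, with 33.2% of all probe sets called. The 6 others, which include all of Bcl2 and Bik, had a median intensity of 6.19 to 16.8 over the 12 arrays. The comparisons with control share the same 3 control arrays.

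Other genes of the death pathways were read through 4 lists, each gene by its brightest probe set. Beside the list counts, 2.95% of all probe sets were called in hepatitis, 3.62% in cirrhosis and 29.8% in HCC against control. Those shares include dim and unannotated probe sets, unlike the lists. In a fit with only the brightest probe set per gene, 568, 475 and 5501 of 14217 were called. Of 11 other Bcl2 family genes, such as Bbc3 (Puma) and the mitophagy receptor Bnip3, limma called none in hepatitis and none in cirrhosis against control, with 1 and 1 at an unadjusted p under 0.05. In HCC 1 was lower, Bcl2l10 at -0.22 ± 0.06 (adjusted p = 0.0241), a dim gene at 12.1 ± 1.22 in HCC against 16.9 ± 2.68 in control (intensity, SD, n = 3; limma). Bbc3, a p53 target, had 0.31 ± 0.13 in hepatitis (adjusted p = 0.265). The list medians were 0.0062, -0.0090 and 0.09 in hepatitis, cirrhosis and HCC.

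The death receptor pathway had 13 genes measured. In hepatitis 1 rose, Fas, the death receptor upstream of Bid, at 1.21 ± 0.14 (log2, SE; limma adjusted p = 0.00285), with an intensity of 207 ± 18.4 in hepatitis against 81.6 ± 18.3 in control (SD, n = 3). Fas was lower in cirrhosis than in hepatitis, by -1.07 ± 0.14 (adjusted p = 0.0101), where the Bid probe sets had 0.0007 ± 0.13 (1377759_at, adjusted p = 0.999) and -0.15 ± 0.06 (1369683_at, adjusted p = 0.361). In cirrhosis against control none of the 13 was called, with 2 at an unadjusted p under 0.05. In HCC 2 of the 13 were higher and 2 lower than in control. There 29.8% of all probe sets were called, or 5501 of 14217 with 1 probe set per gene. The initiator caspase Casp8 at 0.55 and the adaptor Traf2 at 0.32 were higher. The ligand gene Tnfsf10 (Trail) at -0.75 and the receptor Tnfrsf1a at -0.48 were lower.

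Of 14 genes of the apoptosome, caspases and their inhibitors, 1 was lower in hepatitis and 1 in cirrhosis, in both cases Htra2, a mitochondrial protease, at -0.27 ± 0.04 (log2, SE; limma adjusted p = 0.00988) and -0.26 ± 0.04 (adjusted p = 0.013). In HCC 2 of the 14 genes were higher and 3 lower than in control, with 29.8% of all probe sets called there. Htra2 was among those higher, at 0.46 ± 0.04 (limma adjusted p = 8.78e-05). The other riser was Birc3, at 0.83, and the genes that fell were Birc2 at -1.12, Endog at -0.81 and Aifm1 at -0.67. Birc2 and Birc3 are related inhibitors of apoptosis, and Endog and Aifm1 encode mitochondrial proteins released during cell death. The list medians were 0.09, 0.05 and -0.04 in hepatitis, cirrhosis and HCC.

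The p53 response list, which shares no gene with the 10 family members, had 7 of 13 genes higher and 0 lower in hepatitis, with a median of 0.83. Of all probe sets 1.42% were higher and 1.53% lower there. The 7 genes were led by the cell cycle inhibitor Cdkn1a at 3.53, Ccng1 at 2.77, Phlda3 at 2.58 and the kinase gene Plk2 at 1.69. In cirrhosis 1 was higher, Phlda3 at 0.67, with 3.62% of all probe sets called. In HCC 1 was higher, the p53 ubiquitin ligase Mdm2 at 1.01, and 4 were lower, with 29.8% of all probe sets called. The 4 lower there were Sesn1 at -1.27, Gadd45a at -0.67, Tp53inp1 at -0.62 and Phlda3 at -0.49. In cirrhosis against hepatitis 6 of the 13 were lower and 0 higher, with 0.361% of all probe sets lower and 0.290% higher.

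**Figure D4:**
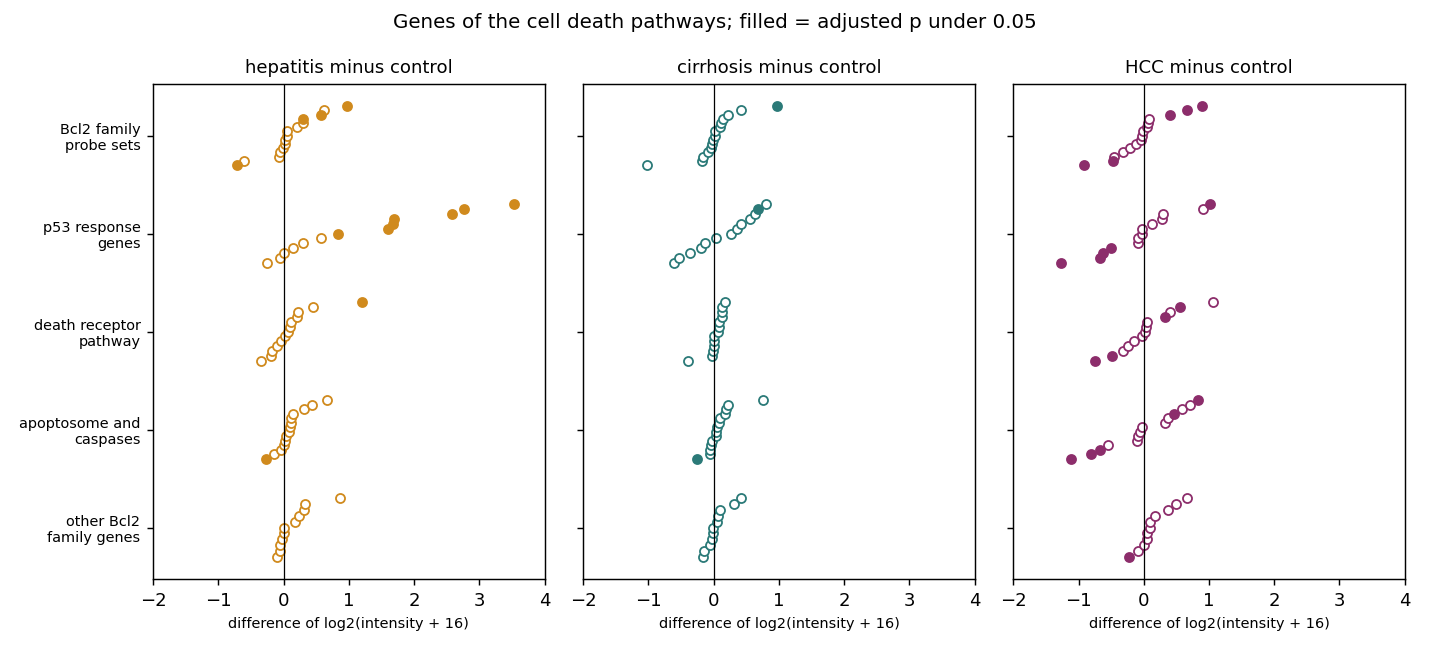
Difference of log2(intensity + 16) from control for each gene of the 4 lists and each of the 15 Bcl2 family probe sets, in hepatitis, cirrhosis and HCC; 1 point per gene or probe set, filled where the adjusted p was under 0.05. The p53 response list reaches 3.53 in hepatitis, while the family's probe sets stay between -0.71 and 0.98 there.

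The genes whose pattern was most like that of Bmf were found by the root mean square difference of centred log2 values over the 12 arrays, among 10310 probe sets with a mean log2 value of at least 6. They were Gucd1 at 0.10, Gphn (gephyrin) at 0.11, Phtf1 at 0.13, Aars1 (alanyl-tRNA synthetase) at 0.14 and Abtb1 at 0.15, where the median candidate had 0.49 and Bmf itself an SD of 0.39. Gucd1 averaged an intensity of 935 for control, 469.8 for hepatitis, 752 for cirrhosis and 423 for HCC. Like Bmf, it stood lower in hepatitis and HCC than in control and cirrhosis.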

How the data were processed

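The authors deposited a linear intensity for each probe set on each array. MAS5 and RMA appear in the submitters' processing notes; which of them made the values is not stated. Array medians were 28.7 to 30.9, with 33.9% to 35.8% of an array under 16. All 12 columns were used, and 0 were left out. The number of arrays limits the precision.

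Of 31099 probe sets 57 were array controls. The platform annotation gave 1 gene symbol to 20826 probe sets, several to 436 and none to 9780, and an update through RefSeq gene IDs (GRCr8) changed 0. Values were analysed as log2(value + 16) with limma 3.58.1 (lmFit, eBayes) in R 4.3.3, with 4 group means, 6 contrasts and 2-sided moderated tests, adjusted over 31042 probe sets. The prior degrees of freedom were 1.6. Errors of log2 differences are standard errors, from a spread that each probe set shares over all 4 groups, HCC included. The fit was tested on simulated data with the same spread in all 4 groups, which leaves out the wider spread of the HCC arrays. Python 3.11.15 with numpy 2.4.6, pandas 2.3.3 and matplotlib 3.10.9 served for tables and plots. Replicate numbers are those of the sample titles.

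The members and lists were chosen with earlier results of these data known. Named are all member probe sets, the 5 genes most like the member with the smallest F test p, and up to 4 called genes per list and comparison, by absolute difference. Bbc3, and Phlda3 and Htra2 in HCC, were named after their values were seen. Alternatives were a pseudocount of 1, the dimmest 30% of probe sets left out, quantile normalization, trended and robust eBayes, a fit of 2 groups, a replicate block, 1 probe set per gene and each array left out. Chosen after seeing the data were a fit without the HCC arrays and a count with the probe set of Bax and LOC681314.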

Additional observations from a re-analysis of the deposited data

Results flagged for a closer look

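The probe set annotated to Bax and LOC681314 together, which stands outside the counted family, was higher in hepatitis than in control by 1.06 on the log2 scale, with all 3 hepatitis arrays above all 3 controls. It drew attention because it carries a signal above the control level and names a family gene, and the 2 loci cannot be told apart on it.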

How the results depend on the processing

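Of 22 differences called for a family probe set, 12 stayed called in every alternative, and none changed direction in 419 comparisons, of which 52 missed the threshold. In cirrhosis against control the family count of 1 was 2 with log2(value + 1), with the dimmest 30% left out, with quantile normalization and with trended and robust eBayes, and 3 with only the 2 groups in the fit or without the 3 HCC arrays. In HCC against control the count of 5 was 3 with only the 2 groups in the fit, in HCC against cirrhosis the count of 6 was then 2, and in HCC against hepatitis the count of 5 was 3 with 1 probe set per gene. In cirrhosis against hepatitis the count of 1 was 2 with the dimmest 30% left out, with 1 probe set per gene, without the 3 HCC arrays and with the probe set of Bax and LOC681314. With only the 2 groups in the fit, calls also missed the threshold for Bak1 (adjusted p = 0.138) and Mcl1 1372520_at (0.0634) in HCC against control, Bad (0.0709), Mcl1 1370141_at (0.057) and Mcl1 1372520_at (0.112) in HCC against cirrhosis, Bmf in cirrhosis against hepatitis (0.0767) and the dim Bid probe set in hepatitis (0.0706). Quantile normalization ended the Bak1 call in HCC against control (0.0567) and made the Mcl1 1372520_at difference between HCC and hepatitis a call (0.70, 0.0011). The Mcl1 1372520_at call in HCC against cirrhosis was lost with trended and robust eBayes (0.0587), and with the dimmest 30% left out those of the dim Bid probe set in hepatitis (0.0505) and of Bcl2l11 1370787_at in HCC against cirrhosis (0.107). The call gained in cirrhosis with the first 4 settings was Bcl2l11 1388742_at (0.0329 to 0.0482). With only the 2 groups in the fit, Mcl1 1370141_at gained calls in hepatitis (0.0223) and cirrhosis (0.00633) against control. That fit also called Bcl2l11 1388742_at in cirrhosis against control (0.0118) and Bcl2l1 1370812_at in cirrhosis against hepatitis (0.0226). The cause of these shifts was not tested.

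With the replicate number as a block the family count in cirrhosis against hepatitis was 0 by limma, with 4 at an unadjusted p under 0.05, as Bmf missed the threshold (0.0536). So did Bak1 in HCC against control (0.0508), Bcl2l11 1370787_at in HCC against cirrhosis (0.0682) and the dim Bid probe set in hepatitis (0.0582), and all probe sets called were 717 in place of 1125 in cirrhosis against control and 133 in place of 202 in cirrhosis against hepatitis. Deviations from group means correlated at -0.22 to 0.34 (median -0.011) between same-numbered arrays and -0.31 to 0.19 (median 0.010) between others. Same-numbered hepatitis and HCC arrays had 0.34, 0.17 and 0.07, and same-numbered control and hepatitis arrays -0.18, -0.11 and -0.22. Such correlations cannot decide whether same-numbered arrays are paired or share a batch.

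Leaving out 1 array gave family counts of 2 to 5 in hepatitis, 1 to 3 in cirrhosis and 4 to 7 in HCC against control, 0 to 2 in cirrhosis against hepatitis, 4 to 6 in HCC against hepatitis, 4 to 7 in HCC against cirrhosis and 7 to 9 for any difference. The hepatitis count was 2 without control replicate 1 or 2 or hepatitis replicate 1 or 2, and the cirrhosis count 3 without HCC replicate 1. Of all 31042 probe sets, 6642 to 10638 were then called in HCC against control and 6698 to 10355 in HCC against hepatitis. In HCC against cirrhosis 7611 to 11311 were called, and 8427 to 11645 for any difference. All probe sets called were 297 to 1652 in hepatitis (main 916), 194 to 1884 in cirrhosis and 63 to 439 in cirrhosis against hepatitis. Without the 3 HCC arrays these were 3113, 3314 and 1094, with 2 groups in the fit 4949 in cirrhosis and 4994 in HCC (main 9237) against control, 466 in cirrhosis against hepatitis, 3793 in HCC against hepatitis (main 8990) and 6499 in HCC against cirrhosis (main 10008). With 1 probe set per gene 14217 features were tested in place of 31042, so these counts do not compare directly with the main ones. Of the 14217, 568, 475, 5501, 4958, 5262 and 5734 were called in hepatitis, cirrhosis and HCC against control, HCC against hepatitis, HCC against cirrhosis and for any difference (main 10303 of 31042).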
